A study of Mus musculus with 6 samples.

Results

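The 10 genes described here encode subunits of the canonical BAF (cBAF) and PBAF forms of the SWI/SNF chromatin remodeller. They comprise the ATPases Smarca4 and Smarca2 and the scaffold subunits Smarcc1 and Smarcc2. The others are the cBAF subunits Arid1a, Arid1b and Dpf2 and the PBAF subunits Arid2, Pbrm1 and Phf10. Not all are specific to these forms, since the study treats BRG1, the Smarca4 product, as a subunit of every form, including that with BRD9. The 10 genes were chosen by name, as the rows of the expression files that carry these symbols, and all 10 were found among 24411 genes. RNA-seq libraries were made from poly(A) RNA of lineage-negative bone marrow cells of C57BL/6 mice, in 3 control libraries (CD45.2(+) Brd9fl/fl) and 3 Brd9 KO libraries (CD45.2(+) Mx1-Cre Brd9fl/fl). Both groups carry the floxed Brd9 allele and received pIpC, a double-stranded RNA mimic that switches on Mx1-Cre, as 3 injections of 20 mg/kg, 8 weeks before the cells were taken. The controls hold no Cre, so what Cre does by itself and what the loss of Brd9 does cannot be told apart, and Mx1-Cre also acts in cells outside the blood. The sources differ on the animals. The labels speak of transplant recipients treated 4 weeks after the transplant, the series design of primary mice treated at an age of 4 weeks, and the study's text of Lin-c-Kit+ cells sorted from mice aged 4 months.

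SWI/SNF complexes use ATP to slide and evict nucleosomes and are built in 3 main forms around a shared core. cBAF carries an ARID1 subunit and DPF2 and works mostly at enhancers, PBAF carries ARID2, PBRM1 and PHF10 and works mostly at promoters, and the smaller non-canonical form (ncBAF) carries BRD9 and GLTSCR1 or GLTSCR1L in their place. Several positions can be filled by either of a pair of related proteins, such as SMARCA4 or SMARCA2 as the motor. The comparison below asks whether mRNA of the canonical subunits differed where the ncBAF subunit Brd9 was deleted. mRNA in bulk samples does not measure complex assembly, and fewer cells of a type cannot be told apart from less RNA per cell.

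Brd9 itself checked the labels. Its level in CPM (counts scaled to a common library size by TMM, a factor that corrects for differences in library composition) was 45.9, 49.1 and 52.1 in the controls and 15.6, 13.5 and 21.0 in Brd9 KO, with no overlap and a log2 fold change of -1.56 ± 0.17 (SE; adjusted p = 0.00345, edgeR's quasi-likelihood test). Libraries held 21151031 to 28500168 expected counts. Kit mRNA lay between 43.0 and 86.0 TPM (a relative level per unit of transcript length). Of 14 neutrophil genes, 2 were higher and 1 lower in Brd9 KO, and their summed TPM was 7015 to 9845 in control, 5949 and 7617 in Brd9 KO replicates 1 and 2, and 28665 in Brd9 KO replicate 3, while that of 10 stromal genes was 11.6 to 18.8 in the controls and 44.4 to 88.9 in Brd9 KO, with 8 of the 10 higher. Of 8 progenitor genes, 2 were higher and 1 lower, and their summed TPM (5508 to 6643 in the controls, 3463 to 4732 in Brd9 KO) was mostly Mpo, at 4960 to 6027 and 2704 to 3687 TPM, while Gata2 was at 77.5 to 91.8 and 225 to 239 TPM. Of 9 T and NK cell genes, 3 were higher and 1 lower (summed TPM 496 to 601 in the controls and 351 to 369 in Brd9 KO). That sum was mostly Nkg7, at 477 to 587 and 308 to 320 TPM, while Gzma was at 2.86 to 3.65 and 19.25 to 31.0 TPM. Of 8 macrophage genes 5 were higher and 1 lower (90.6 to 146 and 152.5 to 188), and of 10 erythroid genes 4 were lower (3126 to 4889 and 3007 to 5388). Of 6 B cell genes tested, 2 were lower and none higher. The summed TPM of the 7 B cell genes present, mostly Cd79a and Cd79b, was 88.0 to 117 in the controls and 93.8 to 148 in Brd9 KO. The part of these shifts in the results below was not tested.

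Of the 10 subunit genes, 1 fell in Brd9 KO (Phf10), none rose, and 9 did not pass the test at an adjusted p under 0.1, the threshold the study used. Across the 12953 genes tested, 15.4% passed, 9.19% higher and 6.25% lower, so the share among the subunits was near the background. At an unadjusted p under 0.05 there were 2, Phf10 and Smarca2. The median log2 fold change of the 10 was 0.18, beside 0.02 over all genes, and their median absolute change of 0.23 lay beside 0.24 over all genes. No subunit gene differed by over 1.5-fold. For 5 of them (Smarca4, Smarcc1, Dpf2, Arid2 and Pbrm1) the 95% interval of the fold change lay wholly within 1.5-fold in either direction. Without Brd9 KO replicate 3, when 4150 of all genes passed, 6 subunits did (Smarca2, Smarcc2, Arid1a, Arid1b and Arid2 higher, Phf10 lower), while none passed without control replicate 2 or 3 or without Brd9 KO replicate 1 or 2.

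**Figure D1:**
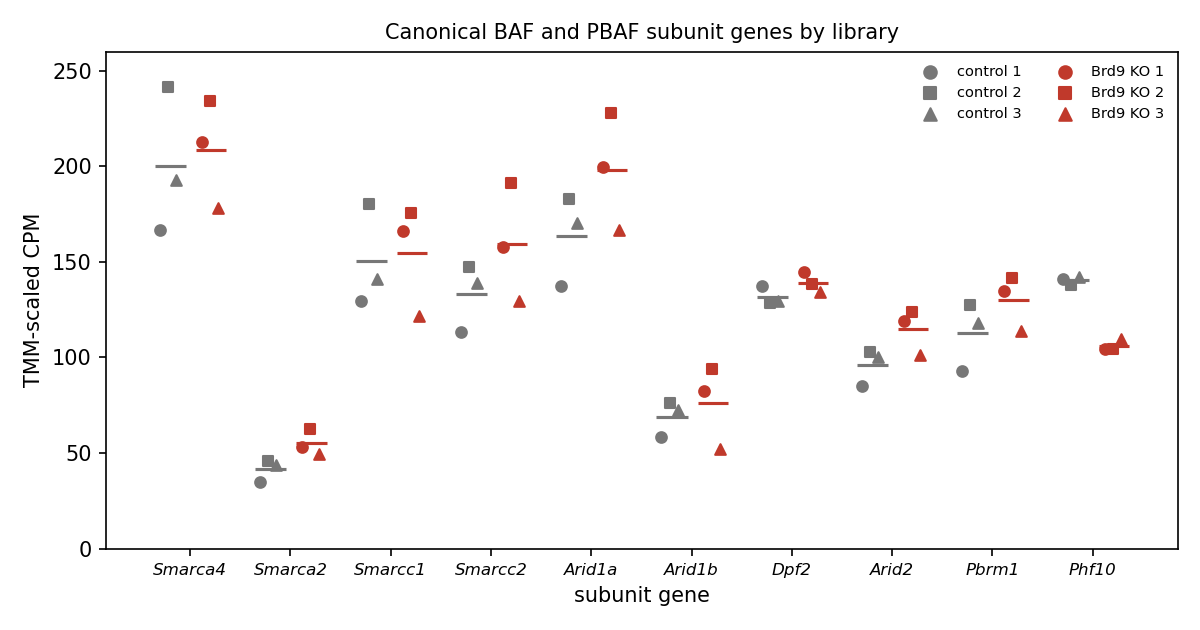
TMM-scaled CPM of each subunit gene in the 3 control (grey) and 3 Brd9 KO (red) libraries, with horizontal lines at the group means and one symbol for each library. Phf10 lay at 138 to 142 CPM in the controls and 104 to 109 CPM in the Brd9 KO libraries with tight groups, Smarca2 was the other gene whose groups did not overlap, and most genes were lowest in control replicate 1 and in Brd9 KO replicate 3.

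Phf10 encodes a PHD finger protein that is found in PBAF and not in the other forms. Its level was 141, 138 and 142 CPM in the controls and 104, 104 and 109 CPM in the Brd9 KO libraries. Every Brd9 KO library lay below every control library, as for 16.3% of all genes tested, and the gap was many times the spread within either group. The group means were 140.3 ± 1.95 and 106 ± 2.95 CPM (SD, n = 3 each), so 75.6% of the control level was left, with a log2 fold change of -0.40 ± 0.09 (SE; adjusted p = 0.0354, edgeR). The fall was as large without Brd9 KO replicate 3, the library high in neutrophil genes (adjusted p = 0.0265). The call was lost without control replicate 2 (adjusted p = 0.106), without control replicate 3 (0.111), or without either Brd9 KO replicate 1 (0.160) or 2 (0.118), with log2 fold changes of -0.42 to -0.39. On the TPM scale, where the median log2 fold change of all genes was 0.18, Phf10 was 103, 126 and 123 in the controls and 105, 115 and 89.6 in Brd9 KO, so the groups overlapped (-0.19 on log2(TPM + 1), adjusted p = 0.416 with limma).

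Phf10 lies on chromosome 17 from 14945009 to 14961273 (mm10, minus strand). The protein-coding gene 1600012H06Rik lies on the other strand, and its exons share 429 bases with Phf10's, 25.8% of the exon bases of Phf10. The sources disagree on whether the libraries kept strand, so reads from these bases may not be assigned to 1 gene with certainty. The neighbour was at 21.0, 19.7 and 20.3 CPM in the controls and 21.8, 22.8 and 21.7 CPM in Brd9 KO, with a log2 fold change of 0.12 (adjusted p = 0.474, edgeR). Reads within the shared bases could not be counted from these files, so their part in the Phf10 value was not tested.

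Sequence upstream of the start was read for the 2 genes whose groups did not overlap, Phf10 and Smarca2, and for Smarca4, the partner of Smarca2. Each stretch is 120 bases from RefSeq's promoter table (GRCm38.p6), shown in the direction of the gene and ending at the base before the gene's first base in GENCODE vM21. For Smarca2 the stretch lies before the longer of its transcripts. The shorter one starts inside the gene, at 26748403, and by the estimate given below made up most of the Smarca2 mRNA in each library. The bases before that start were not read. Capitals mark the GC box (GGGCGG), the NRF1 core (GCGCATGC), the ETS core (CCGGAA) or the CCAAT box (CCAAT), each searched on both strands.
Phf10, chr17:14961274-14961393, minus strand: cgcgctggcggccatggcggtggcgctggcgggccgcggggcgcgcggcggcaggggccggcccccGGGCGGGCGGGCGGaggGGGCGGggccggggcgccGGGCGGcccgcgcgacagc
Smarca2, chr19:26604930-26605049, plus strand: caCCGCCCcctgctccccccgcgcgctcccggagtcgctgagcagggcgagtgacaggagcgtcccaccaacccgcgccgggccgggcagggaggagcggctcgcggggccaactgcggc
Smarca4, chr9:21616049-21616168, plus strand: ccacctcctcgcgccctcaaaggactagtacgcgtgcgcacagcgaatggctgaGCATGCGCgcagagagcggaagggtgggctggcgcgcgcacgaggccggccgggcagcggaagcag

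The stretch of Phf10 held 5 GC boxes, 3 of them in a run where each shares letters with the next, and 25 CpG dinucleotides. That of Smarca2 held 1 GC box and 16 CpG, and that of Smarca4 held 1 NRF1 core, read on the opposite strand, and 16 CpG. In windows of 250 bases before to 50 bases after the start, 9 of the 10 genes had an entry, Arid1a with a pair of starts. A GC box was present for 8 of the 9 genes, against 35.7% of all 32851 promoters in the table. The ETS core was present for 4 (14.9% of all promoters), the NRF1 core for 2, Smarca4 and Smarcc1 (2.71%), and the CCAAT box for 1, Dpf2 (37.4%). The windows held 20 to 62 CpG dinucleotides with a median of 34, beside a median of 7 over all promoters, and Phf10 had the most. A match of letters is a description and not a bound site.

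The other PBAF subunits, Arid2 and Pbrm1, did not pass the test. Arid2, the AT-rich interaction domain subunit, was at 84.9, 103 and 100.2 CPM in the controls and 119, 124 and 101 CPM in the Brd9 KO libraries, so the lowest Brd9 KO library lay within the control range (0.26 ± 0.12, adjusted p = 0.214, edgeR). Pbrm1, which reads acetylated histones through several bromodomains, was at 92.6, 127 and 118 CPM in the controls and 135, 142 and 114 CPM in the Brd9 KO libraries (0.21 ± 0.15, adjusted p = 0.389). Both means were higher in Brd9 KO, and for both genes the groups overlapped. Without Brd9 KO replicate 3 Arid2 passed (0.34, adjusted p = 0.0775) and Pbrm1 did not.

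Among the cBAF subunits, Dpf2, a double PHD finger protein, varied little. It was at 137, 128 and 130 CPM in the controls and 145, 138 and 134 CPM in the Brd9 KO libraries, with overlapping groups and a log2 fold change of 0.08 ± 0.09 (95% interval -0.13 to 0.29, adjusted p = 0.611, edgeR). Arid1a, a DNA-binding subunit often mutated in cancer, was at 137, 183 and 170 CPM in the controls and 199, 228 and 167 CPM in the Brd9 KO libraries (0.28 ± 0.15, adjusted p = 0.279). The overlap of its groups came from Brd9 KO replicate 3, and without that library Arid1a passed (0.38, adjusted p = 0.0877). Arid1b, the paralogue that can take its place, was at 58.4, 76.0 and 72.5 CPM in the controls and 82.6, 94.0 and 52.3 CPM in Brd9 KO (0.15 ± 0.21, adjusted p = 0.683). Brd9 KO replicate 3 was the lowest of all 6, and without it the gene passed (0.35, adjusted p = 0.0964).

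Neither catalytic subunit passed the test. Smarca4 (BRG1), the main motor, was at 167, 241 and 193 CPM in the controls and 213, 234 and 178 CPM in the Brd9 KO libraries. These ranges lie on top of each other, and the log2 fold change was 0.06 ± 0.16 (95% interval -0.32 to 0.43, adjusted p = 0.843, edgeR). Smarca2 (BRM), the alternative motor, was at 34.8, 46.0 and 43.7 CPM in the controls and 53.2, 62.8 and 49.3 CPM in Brd9 KO. Each Brd9 KO library lay above each control library, as for 17.2% of all genes tested, with 133% of the control mean. Its log2 fold change of 0.41 ± 0.14 (95% interval 0.08 to 0.74) did not pass (adjusted p = 0.114). Over the alternatives its adjusted p ran from 0.0235 to 0.321, with 0.0900 in DESeq2, 0.0519 without Brd9 KO replicate 3, 0.274 without control replicate 1 and 0.321 without Brd9 KO replicate 2. Its groups did not overlap in TPM either, with 17.7, 20.1 and 21.8 in the controls and 24.8, 28.0 and 25.6 in Brd9 KO.

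The scaffold subunits, which hold the core together as dimers, did not pass the test either. Smarcc1 was at 130, 180 and 141 CPM in the controls and 166, 176 and 121 CPM in the Brd9 KO libraries (0.04 ± 0.18, 95% interval -0.37 to 0.45, adjusted p = 0.909, edgeR). Smarcc2 was at 113, 147 and 139 CPM in the controls and 158, 191 and 129 CPM in the Brd9 KO libraries (0.26 ± 0.17, 95% interval -0.12 to 0.64, adjusted p = 0.341). Both pairs of groups overlapped, and the interval of Smarcc2 extends past 1.5-fold. Without Brd9 KO replicate 3 Smarcc2 passed (0.39, adjusted p = 0.0895).

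**Figure D2:**
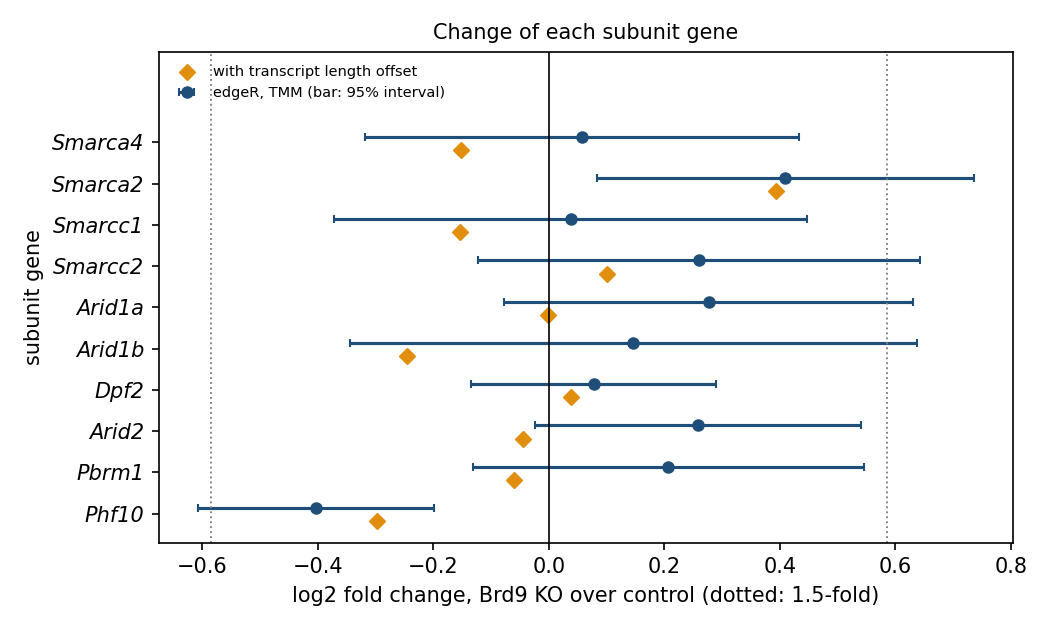
Log2 fold change of each subunit gene, Brd9 KO over control, from edgeR (circles, bars are 95% intervals) and with an offset for transcript length (diamonds), with dotted lines at 1.5-fold. In the first fit 9 of the 10 values lay above 0, and with the offset 7 lay below 0. Phf10 stayed below 0 and Smarca2 above 0 in both.

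The subunit genes moved together between libraries of the same group. In control, 8 of the 10 were lowest in replicate 1 and 8 were highest in replicate 2, and in Brd9 KO, 9 were lowest in replicate 3 and 8 highest in replicate 2. This went with transcript length. The 7 subunit genes with transcripts over 4000 bases were without exception lowest in control replicate 1 and in Brd9 KO replicate 3, and Phf10, with the shortest transcript of the 10 (1664 bases), was lowest in neither. Across all tested genes the pattern was the same. The 1252 genes over 6000 bases had median deviations from the control mean of -0.21, 0.15 and 0.07 (log2) in the controls and of 0.31, 0.46 and 0.02 in Brd9 KO, and their median log2 fold change was 0.28. The 2449 genes under 1500 bases had a median log2 fold change of -0.23. Arid1a and Arid2, of 8175 and 9029 bases, had log2 fold changes of 0.28 and 0.26 and so lay at or close to the median of their length class. The other subunit genes over 6000 bases lay below it, with log2 fold changes minus the class median of -0.07 (Pbrm1), -0.13 (Arid1b) and -0.22 (Smarca4).

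**Figure D3:**
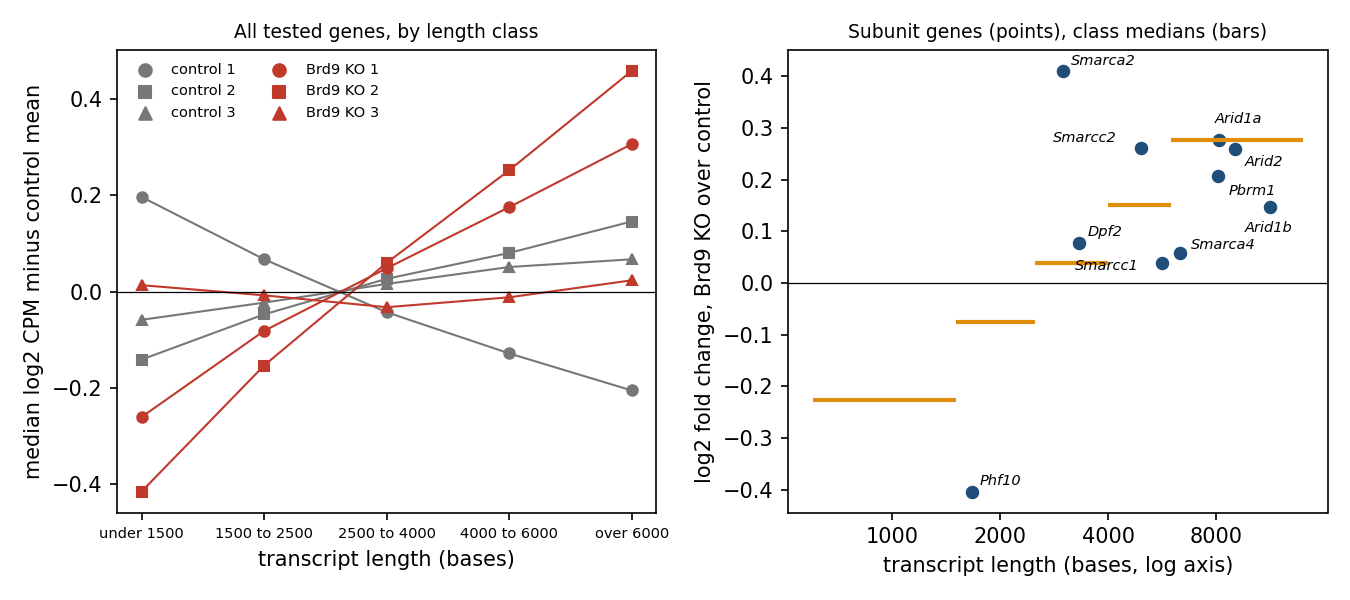
Left, median log2 CPM minus the control mean in each library for all tested genes in 5 classes of transcript length, control libraries grey and Brd9 KO libraries red. Right, log2 fold change (Brd9 KO over control) of the 10 subunit genes against transcript length on a log axis, with orange bars at the median of all genes in each class (the outer classes have no outer limit). Libraries lay apart at both ends of the length range, with control replicate 1 and Brd9 KO replicate 2 at opposite extremes. Their medians were 0.20 and -0.42 under 1500 bases and -0.21 and 0.46 over 6000 bases. Smarca2 (placed by its mean weighted length) and Phf10 lay farthest from their class medians.

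Phf10 lay apart from its length class. Genes of 1500 to 2500 bases had median deviations of -0.08, -0.15 and -0.01 in Brd9 KO replicates 1 to 3, while Phf10 deviated by -0.43, -0.43 and -0.36. In a fit with an offset for transcript length, chosen after the pattern had been seen, Phf10 was lower by a log2 fold change of -0.30 (adjusted p = 0.0483, edgeR) and Smarca2 was higher by 0.39 (adjusted p = 0.0665). The offset took 1 mean length for each gene. For Smarca2 this was 2994 bases, while its weighted length ran from 2302 to 3807 bases between libraries. The value of Smarca2 and its distance from its length class depend on that choice, and other lengths were not tested. The other 8 did not pass and lay between -0.25 (Arid1b) and 0.10 (Smarcc2), with Smarca4 at -0.15, Smarcc1 at -0.15 and Arid1a at -0.00. The median of the 10 was then -0.0525. The offset was the trend of level with length in each library, taken over all tested genes. It takes out any group difference that follows length by construction, so the lower median is no test of length. Whether RNA quality or cell makeup varied with the length pattern was not tested.

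Per unit of length, Phf10 was the most abundant of the 10 mRNAs in every library and Dpf2 the second. In control the levels were 117 ± 12.6 TPM for Phf10, 51.7 ± 4.04 for Dpf2, 40.2 ± 11.7 for Smarca4, 34.8 ± 8.25 for Smarcc2, 34.0 ± 9.42 for Smarcc1 and 25.4 ± 6.24 for Arid1a (SD, n = 3 each). They went on with 19.9 ± 2.04 TPM for Smarca2, 17.6 ± 4.62 for Pbrm1, 13.4 ± 2.74 for Arid2 and 7.67 ± 1.83 for Arid1b, which was the lowest in every library. Smarca4, Smarcc2 and Smarcc1 lay within their spread of each other, as did Smarca2 and Pbrm1. In Brd9 KO the order was close to this, with 103 ± 12.6 TPM for Phf10, 63.8 ± 10.6 for Dpf2, 49.0 ± 16.1 for Smarcc2, 48.7 ± 13.3 for Smarca4, 40.9 ± 12.9 for Smarcc1 and 35.9 ± 10.4 for Arid1a. Phf10 made up 30.3% to 34.9% of the summed TPM of the 10 in the controls and 22.8% to 27.8% in Brd9 KO.

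A ratio within 1 library does not depend on how libraries are scaled. The summed TPM of the 3 PBAF-specific genes over that of the 3 cBAF-specific genes was 1.76, 1.72 and 1.77 in the controls and 1.29, 1.27 and 1.46 in Brd9 KO. The Brd9 KO libraries lay wholly below, with mean log2 ratios of 0.81 ± 0.02 and 0.42 ± 0.11 (SD, n = 3 each), a difference of -0.39 for which no test was run. Phf10 is the largest term, the shortest transcript and the only PBAF gene with a lower mean in Brd9 KO. In TPM its mean went from 117 to 103, with overlapping groups. The denominator rose on this scale. Mean TPM was higher in Brd9 KO for Dpf2 (51.7 to 63.8), Arid1a (25.4 to 35.9) and Arid1b, and also for Arid2 and Pbrm1. The groups of each of these genes overlapped in TPM. The part of each term in the lower ratio was not tested. Between the long transcripts alone, Arid2 and Pbrm1 over Arid1a and Arid1b (a ratio chosen after the data were seen), the log2 ratio was -0.08, -0.10 and -0.09 in the controls and -0.09, -0.21 and 0.01 in Brd9 KO, which overlap.

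The 3 ratios of paralogues did not pass. Each was compared by an exact two-sided permutation test, in which 3 libraries against 3 cannot give a p below 0.1, adjusted over the 3 ratios. Arid1a exceeded Arid1b by 3.28 to 3.35 times in the controls and by 3.37, 3.38 and 4.45 times in Brd9 KO, so the groups did not overlap (log2 difference 0.16, exact permutation p = 0.1, adjusted 0.3). The difference rested on Brd9 KO replicate 3 and was 0.03 without it. Smarca4 exceeded Smarca2 by 1.63, 2.60 and 1.81 times in the controls and by 2.05, 2.18 and 1.35 times in Brd9 KO (log2 difference -0.12, exact permutation p = 0.7). The sign of this difference turned without control replicate 2 (0.08) or without Brd9 KO replicate 3 (0.10). With CPM divided by 1 mean length for each gene in place of TPM the difference was -0.35 (exact permutation p = 0.1), with no overlap. On both scales the Smarca2 value sums a transcript of 33 exons and one of 9 exons that starts inside the gene. By the estimate given below, the shorter made up most of it in each library. The ratio of Smarca4 to Smarca2 is therefore not that of the full-length mRNAs. Smarcc1 and Smarcc2 gave log2 ratios of -0.02, 0.08 and -0.19 in the controls and -0.14, -0.34 and -0.30 in Brd9 KO (difference -0.22, exact permutation p = 0.2, adjusted 0.3).

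**Figure D4:**
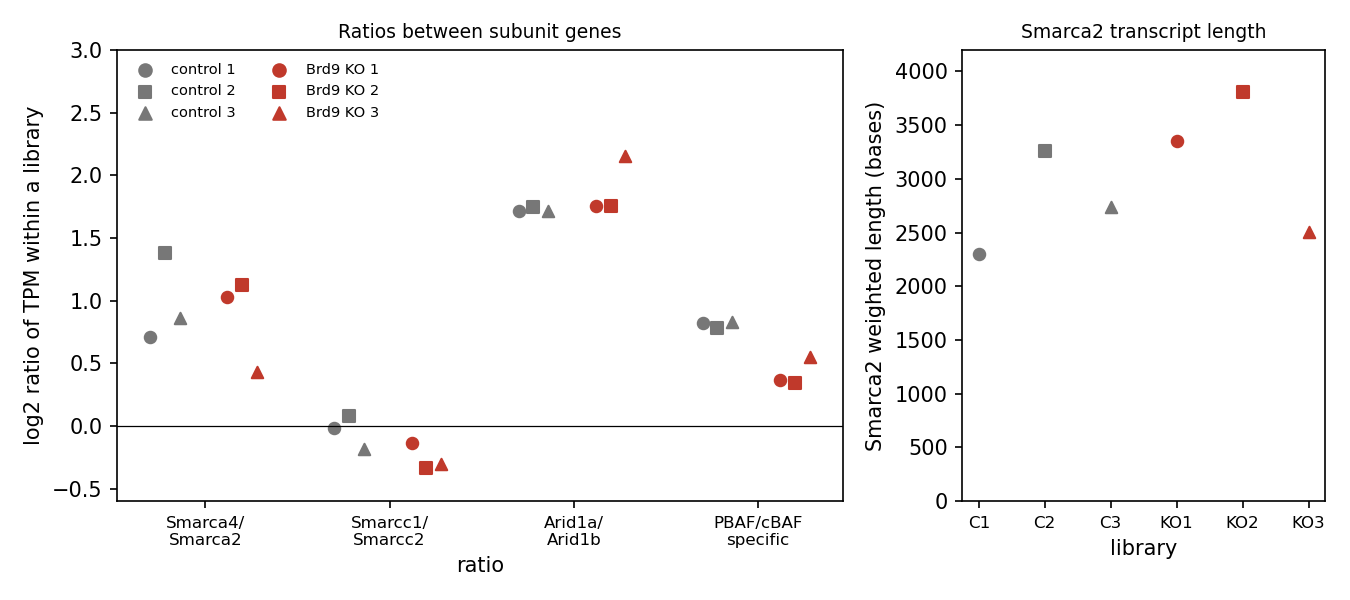
Left, log2 ratio of TPM within each library for the 3 pairs of paralogues and for the summed PBAF-specific over the summed cBAF-specific genes, control libraries grey and Brd9 KO libraries red. Right, the abundance-weighted transcript length of Smarca2 in bases in each library (C, control). The PBAF to cBAF ratio lay at 0.78 to 0.83 in the controls and 0.34 to 0.55 in Brd9 KO, and the length of Smarca2 ran from 2302 to 3807 bases with overlapping groups.

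Smarca2 differed from the other subunits in the transcripts behind its value. It lies on chromosome 19 from 26605050 to 26778322 (mm10, plus strand), and the files count 2 RefSeq transcripts, a long one with 33 exons and a short one with 9 exons that starts inside the gene, at 26748403, and shares its end. The files' abundance-weighted length was 2302, 3260 and 2737 bases in the controls and 3356, 3807 and 2505 bases in the Brd9 KO libraries. It was lowest in control replicate 1 and in Brd9 KO replicate 3, the libraries low in long transcripts, and the groups overlapped. With lengths of 5921 and 1962 bases taken from the annotation, which may differ from those the authors used, these values correspond to 1.52, 6.58 and 4.26 TPM of the long transcript in the controls and 8.73, 13.0 and 3.52 TPM in Brd9 KO. The short transcript was then at 16.2, 13.5 and 17.5 TPM in the controls and 16.1, 14.9 and 22.1 TPM in Brd9 KO, so by this estimate it made up most of the Smarca2 mRNA in each library. Both transcripts overlapped between groups. For the other 9 subunit genes the weighted length varied between libraries by well under 1%.

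The other SWI/SNF genes tested were 11 for further core subunits, 3 of the cBAF and PBAF forms and 3 of ncBAF. Of these 3 passed, all in ncBAF, and over all genes tested 15.4% did, so the share was near the background. The deleted gene, Brd9, was lower, and its partners Gltscr1 and Gltscr1l (Bicra and Bicral in current nomenclature) were higher. Gltscr1l was at 24.2, 34.7 and 34.3 CPM in the controls and 57.8, 73.7 and 46.6 CPM in Brd9 KO, with no overlap (0.93 ± 0.20, adjusted p = 0.0336, edgeR). Gltscr1 was at 9.39, 17.1 and 17.3 CPM in the controls and 28.1, 35.4 and 18.7 CPM in Brd9 KO (0.91 ± 0.29, adjusted p = 0.0968). Both have long transcripts, of 6579 and 5360 bases, and with the length offset Gltscr1l was at 0.71 (adjusted p = 0.00668) and Gltscr1 at 0.74 (adjusted p = 0.0599). Gltscr1 lost its call without any 1 of control replicates 1, 2 or 3 or of Brd9 KO replicates 1 or 2 (adjusted p = 0.212, 0.153, 0.149, 0.218 and 0.263).

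None of the 11 tested genes for further core subunits passed, of 13 listed. The most abundant of them by mean TPM was Actb, which encodes β-actin, a core subunit as well as a part of the cytoskeleton, at 2612 ± 277 CPM in the controls and 3116 ± 687 CPM in the Brd9 KO libraries (0.25 ± 0.18, adjusted p = 0.381, edgeR). The next by mean TPM, though not by CPM, was Bcl7c, at 91.0 ± 17.6 and 78.5 ± 21.6 CPM (-0.22 ± 0.21, adjusted p = 0.539). None of 3 further genes of the cBAF and PBAF forms passed. Brd7, the PBAF bromodomain subunit, was at 142, 137 and 136 CPM in the controls and 122, 118 and 127 CPM in the Brd9 KO libraries, which do not overlap, with a log2 fold change of -0.18 ± 0.09 (adjusted p = 0.248). Dpf3, a relative of Dpf2, was at 2.64 ± 0.35 and 2.19 ± 0.44 CPM (-0.26 ± 0.25, adjusted p = 0.513).

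Of 19 tested ATPases of other remodeller families, 2 rose and none fell. Over all genes tested 9.19% were higher and 6.25% lower, so the share that rose was near the background. Chd3, a motor of the NuRD complex, was at 51.0 ± 5.91 CPM in the controls and 92.0 ± 18.7 CPM in Brd9 KO (0.85 ± 0.17, adjusted p = 0.0250, edgeR). Chd2, another chromodomain helicase, was at 42.7 ± 7.76 and 69.4 ± 16.8 CPM (0.70 ± 0.20, adjusted p = 0.0764). Their transcripts measure 7281 and 9071 bases, and with the length offset their log2 fold changes were 0.59 and 0.39. Without Brd9 KO replicate 3, when 4150 of all genes passed, 7 of the 19 did. Without any 1 of the other libraries, when 641 to 1010 of all genes passed, 1 did.

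The genes whose levels over the 6 libraries ran most like those of a subunit were found by the smallest Euclidean distance of centred log2(CPM + 1) values. For Smarca2 they were Tbc1d2b, Trrap and Cenpf, at distances of 0.061, 0.066 and 0.079, with log2 fold changes of 0.40, 0.44 and 0.40. Their transcripts measure 5934, 12476 and 11122 bases. For Smarca4 they were Zfp72, Tmem144 and Ppip5k2, at distances of 0.065, 0.068 and 0.071, of which the first 2 lay under 2 CPM, where the added 1 narrows every difference, and Ppip5k2 was at 79.6 ± 13.8 CPM in the controls and 82.9 ± 13.6 CPM in Brd9 KO.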

How the data were processed

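The authors aligned reads with STAR to mm10 and quantified genes with RSEM, run through nf-core, as the study's methods state. Deposited for 24411 genes in each library are the expected count, RSEM's estimate, the authors' TPM and transcript lengths. The FPKM column that the authors deposited was not used. Strandedness is unclear, since the labels say unstranded and a stranded kit is named in the methods. The study's text calls the replicates biological, while the labels do not say that they came from separate animals. The spread behind each p-value is that of these libraries only. Libraries of a group differed by more than sampling noise (chi-square 10.6 to 80.2 per degree of freedom). Every subunit gene had 920 to 6432 counts in each library.

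Expected counts were rounded, filtered with filterByExpr, scaled by TMM (factors 0.927 to 1.077) and compared with edgeR 4.0.16 (quasi-likelihood, no covariate) in R 4.3.3, with Benjamini-Hochberg adjustment over 12953 genes and calls at an adjusted p under 0.1. SE was obtained as the log2 fold change divided by the square root of F. The study's DESeq2 run with independent hypothesis weighting was not repeated. Ratios used TPM. The procedures were tested on simulated data. Alternatives were DESeq2 1.42.0, limma 3.58.1 (voom, and log2(TPM + 1) or log2(TPM + 0.1)), a robust fit, other scalings, filters and thresholds, a replicate block, leaving out each library and, added after seeing the data, an offset for transcript length and leaving out control replicate 1 with Brd9 KO replicate 3. Positions came from GENCODE vM21 (GRCm38) and promoters from RefSeq.

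The genes and lists were chosen with earlier results of these data known. Named are the 10 subunits, Brd9, every called gene of the other SWI/SNF lists or, with none called, the 2 most abundant, up to 4 called ATPases of other remodellers, and for Smarca4 and the subunit with the largest change the 3 genes of nearest profile. 1600012H06Rik was named after its overlap with Phf10 was seen.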

Additional observations from a re-analysis of the deposited data

How the results depend on the processing

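Of 210 values of the 10 subunit genes under 21 alternatives, 177 kept their direction and their side of the threshold, 13 newly passed, 7 no longer did and 13 turned in direction without passing. The number of subunits called, 1 with edgeR, was 2 with DESeq2, with the replicate block and with the length offset, 0 with limma on either TPM scale or with a 1.5-fold change required, 6 without control replicate 1 and Brd9 KO replicate 3 together, and 0 to 6 on leaving out 1 library. The median of the 10 was -0.0525 with the length offset and 0.09 to 0.32 on leaving out 1 library. Phf10 was lower and Smarca2 higher under each of the 21 alternatives (adjusted p 0.000675 to 0.423 and 0.0235 to 0.321), while 6 subunits turned to a log2 fold change below 0 under some. With the length offset these were Smarca4 (-0.15), Smarcc1 (-0.15), Arid1a (-0.00071), Arid1b (-0.25), Arid2 (-0.045) and Pbrm1 (-0.060), and on leaving out 1 library they were Smarca4 (-0.060 to 0.21), Smarcc1 (-0.069 to 0.19) and Arid1b (-0.035 to 0.35). Brd7 turned above 0 on both TPM scales (0.039 and 0.040). The difference in the Smarca4 to Smarca2 ratio turned to 0.08 without control replicate 2 and to 0.10 without Brd9 KO replicate 3, a range of -0.26 to 0.10 on leaving out 1 library. The number of other ATPases called, 2 with edgeR, was 1 with either TPM scale and at an adjusted p under 0.05, 8 without both libraries, and 1 to 7 on leaving out 1 library. Over all genes, 1999 were called, 1190 of them higher, and 1402 of 1891 were higher with library totals alone, which raised the median of all genes to 0.10 (log2). Counts of 641 to 4150 came from leaving out 1 library, 1015 from an adjusted p under 0.05, 1225 from a 1.5-fold change and 4451 without both libraries. The cause of these changes was not tested. Replicate numbers did not pair the libraries (correlations of deviations -0.10, 0.61 and 0.01, with 1 number of 3 whose libraries correlated best with each other), and the replicate block added Smarca2 to the calls (adjusted p = 0.0860). The differences in the paralogue ratios cannot change with pairing, since the mean of paired differences equals the difference of the group means. For 5 subunits the 95% interval extends past 1.5-fold. What depth and the number of libraries each add to these intervals was not tested.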
